A study of Mus musculus with 8 samples.

Results

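Rad21 binding was compared between CH12F3 lines with shortened switch regions (PS_Ia, 2 libraries) and lines with full-length switch regions (FS_Ia, 2 libraries), which make up 4 of the 8 ChIP-seq libraries in the series. The libraries were taken by their titles. Peaks of the 4 lists that overlapped by at least 1 bp were merged into 55081 regions, built from 106106 of 108040 deposited peaks. The rest lay on chromosome X, Y or M or on chromosome 12 past the 3' flank of Igh, the immunoglobulin heavy chain locus that was edited. Of the merged regions, 9360 held a peak in all 4 lists, and Rad21 strength was compared in these.

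CH12F3 cells come from a B lymphoma of the mouse and can be made to switch in culture from IgM to IgA. PS_Ia cells carried a deletion between Sγ3 and Sα, the switch regions of the γ3 and α constant genes, that left part of each. FS_Ia cells carried a deletion between Cγ3 and Cα that left both switch regions whole. Both lines were made in αInv cells, both were AID-/-, and both were kept for 3 days with TGF-β, IL4 and anti-CD40 as stimuli, so the 2 genotypes share the αInv background, the loss of AID and the treatment. The Ca lines (PS_Ca and FS_Ca, 2 libraries each), also AID-/- and stimulated alike, are used below for comparison. They were made in cells with a VH-3'BCEs deletion on the non-coding Igh allele, not in αInv cells. PS_Ca again kept part of each switch region after an Sγ3 to Sα deletion, and FS_Ca kept both whole after a deletion of Cγ3 to Iα. The labels do not say whether a genotype is 1 clone or whether its 2 libraries came from separate cultures, so p-values measure only the spread between these samples, which may be technical. The edited part of Igh itself was left out, and peak lists hold no gene expression, so neither the edits nor the cell type could be checked here.

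Rad21 is the kleisin subunit that closes the cohesin ring. Cohesin extrudes chromatin loops, halts mainly at sites bound by CTCF, and so accumulates there, which is why Rad21 peaks mark loop anchors along whole chromosomes. In B cells, cohesin-driven extrusion brings switch regions together at Igh, where enhancers of the 3' regulatory region, followed by a cluster of CTCF-binding elements, lie downstream of Cα. AID, which starts class switch recombination by deaminating switch regions, was absent from all lines, and binding was therefore mapped without AID-initiated breaks. The question behind the series is which part chromatin configuration plays in the orientation of end joining.

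The 4 lists differed in length and depth before any region was compared. PS_Ia replicates 1 and 2 had 20089 and 46858 peaks after filtering, and FS_Ia replicates 1 and 2 had 13493 and 25666. PS_Ia averaged 33473.5 ± 18928.5 peaks and FS_Ia 19579.5 ± 8607.61 (SD, n = 2 each), and the difference of 13894 peaks did not exceed the replicate spread (exact two-sided permutation test, p = 0.667, where 2 libraries against 2 allow no p below 0.333). The background expected by the peak caller, a sign of sequencing depth, was 0.622 and 0.862 fragments per position in the PS_Ia lists, against 0.293 and 0.223 in the FS_Ia lists, so both PS_Ia lists stood above both FS_Ia lists. The lowest called summit was 5 fragments high in both PS_Ia lists, against 4 and 3 in the FS_Ia lists. Peak-name prefixes set the FS_Ia lists together and each PS_Ia list in another set, so switch length and prefix set cannot be told apart, and no value within a set can be given. The background and the prefix set move with every result below, and their part in the results was not tested.

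No shared region passed the threshold for a difference in Rad21 strength between PS_Ia and FS_Ia. Strength was the fold enrichment at the tallest summit of a region, on a log2 scale centred on the library's median over the 9360 shared regions. By limma's moderated test with Benjamini-Hochberg adjustment, 0 regions were higher and 0 were lower in PS_Ia (0% of those tested in each direction, smallest adjusted p = 0.529). At an unadjusted p under 0.05, 576 regions (6.15%) remained, 242 (2.59%) higher and 334 (3.57%) lower in PS_Ia. The difference, PS_Ia minus FS_Ia, had a median of -0.06 and an SD of 0.43 over regions, while its median standard error was 0.39. The moderated test took a region's spread mostly from all regions (55 prior degrees of freedom, against 2 of its own). Standard errors were therefore nearly equal, 0.39 to 0.41 from the 10th to the 90th percentile, even where a region's own replicates lay close together. It ran from -1.63 to 1.69 and was larger than 1 on the log2 scale in 199 regions (2.13%), 79 with PS_Ia higher and 120 with PS_Ia lower. Missing the threshold does not show that strengths were alike: the 95% interval reached a median of 0.79 to each side, and it lay wholly within 1 log2 unit of 0 in 3448 regions (36.8%).

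The closest likeness between any 2 of the 4 libraries was across genotypes, not within one. Across the 9360 regions, Pearson's r of the centred strengths was 0.586 between the PS_Ia replicates and 0.62 between the FS_Ia replicates. Between genotypes it was lowest for PS_Ia replicate 1 with FS_Ia replicate 2, at 0.395, and highest for PS_Ia replicate 2 with FS_Ia replicate 2, at 0.696, higher than either value within a genotype. Regions are not independent replicates, and libraries share their tall sites, so these are descriptions only. Summit positions gave the same picture: the median distance between the summits of a region was 107 bp within PS_Ia and 79 bp within FS_Ia, against 73 to 101 bp in the 4 pairs between genotypes.

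**Figure D1:**
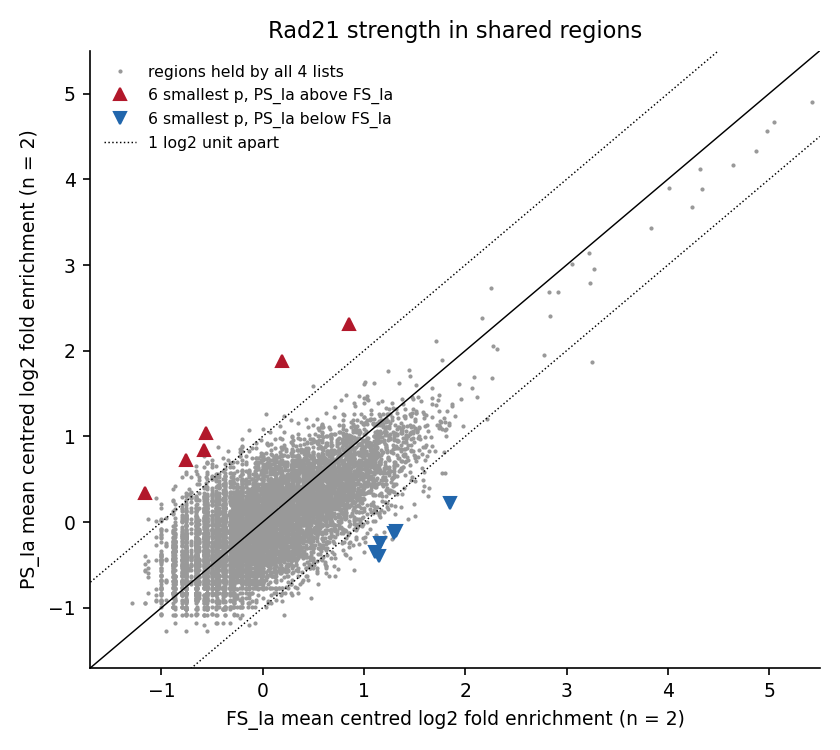
Mean centred log2 fold enrichment of PS_Ia (vertical axis, n = 2) against FS_Ia (horizontal axis, n = 2) in the 9360 regions held by all 4 lists. Grey points are regions, the solid line is equality and dotted lines lie 1 log2 unit away; triangles are the 6 regions per direction with the smallest p, none of which passed adjustment.

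For a description by strength, regions were split by the mean of the 4 libraries into 4 groups of near equal size. In 1300 regions (13.9%) both PS_Ia values lay above both FS_Ia values, and in 1966 (21%) both lay below. PS_Ia had the higher mean in 44.8% of regions. Among the strongest group of 2340 regions PS_Ia was higher in 32.9%, with a median difference of -0.17. There the mean centred strength was 0.62 and 0.70 in PS_Ia replicates 1 and 2, against 0.73 and 0.92 in FS_Ia replicates 1 and 2. The median differences of the other 3 groups, weakest first, were 0.00, 0.00 and -0.05. FS_Ia replicate 2 had the widest spread of strengths of the 4 libraries (SD 0.76, against 0.60 and 0.58 in PS_Ia and 0.55 in FS_Ia replicate 1), and the medians by group rested on single FS_Ia libraries. Without FS_Ia replicate 2 the 4 medians, weakest first, were -0.16, -0.07, -0.03 and -0.08, so that the weakest group was the most negative. Without FS_Ia replicate 1 they were 0.17, 0.07, -0.08 and -0.28. Under quantile normalisation, which gives all libraries 1 distribution, the median of the strongest group was -0.04. Centring on the strongest group moved all differences up by 0.14, so that PS_Ia was higher in 57.6% of all regions in place of 44.8%.

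Split by region width into 4 groups in the same way, PS_Ia was lower most often in the narrowest regions. Regions of 313 to 1078 bp had a median difference of -0.12, with PS_Ia higher in 38.9% of 2340 regions. There the mean centred strength was -0.332 and -0.401 in PS_Ia replicates 1 and 2, against -0.170 and -0.335 in FS_Ia replicates 1 and 2. The genotypes thus overlapped, and FS_Ia replicate 1 alone stood apart. The next 3 groups had medians of -0.05, -0.01 and -0.04, the last for regions of 2047 bp and more.

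The peaks themselves were wider in the PS_Ia lists. In shared regions the median width of the tallest peak was 854 and 1298 bp in PS_Ia replicates 1 and 2, against 560 and 577 bp in FS_Ia replicates 1 and 2. The 2 genotypes did not overlap in this library median, which followed the order of the background only in part, since FS_Ia replicate 2 had the lower background and the slightly wider peaks. After widths were centred on each library's median, limma with Benjamini-Hochberg adjustment found 0 regions wider and 0 narrower in PS_Ia (0% of 9360, smallest adjusted p = 0.175), while 736 (7.86%) had an unadjusted p under 0.05. Across regions the difference in width went with the difference in strength (Pearson's r = 0.479 over 9360 regions), and both values come from the same peak.

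The 12 regions with the smallest p, 6 in each direction, give the size of the differences that 2 libraries against 2 could not separate. All were held by all 8 libraries of the series, and all had the same adjusted p of 0.529 by limma with Benjamini-Hochberg adjustment. No gene is assigned to any of them, because the lists give positions only, in mm9. Their standard errors lay between 0.39 and 0.43. Without FS_Ia replicate 1, the regions at chr11:11641686-11643734, chr1:87522761-87524500 and chr5:37051917-37052498 passed (lowest limma adjusted p = 0.0192), with differences of 2.31, 1.93 and 1.99, but only in regions as merged from all 4 lists; with regions merged anew from the 3 lists, 0 passed.

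The region with the largest positive difference, at chr3:95848440-95848947, had folds of 34.5 and 37.1 in PS_Ia and 10.1 and 9.81 in FS_Ia. This narrow region of 508 bp had its 4 summits within 32 bp, and its replicates lay close together within each genotype. The difference of centred values was 1.69 (SE 0.39, set mostly by the spread pooled over regions). At chr5:37051917-37052498 the folds were 56.1 and 41.4 in PS_Ia and 20.1 and 12.3 in FS_Ia, a difference of 1.46. At chr11:11641686-11643734 they were 24.0 and 16.6 in PS_Ia and 8.51 and 4.09 in FS_Ia, a difference of 1.61. In each of the 3 regions both PS_Ia values lay above both FS_Ia values. The others with PS_Ia higher were chr1:87522761-87524500, chr13:105074642-105075976 and chr2:126991094-126993484, with differences of 1.5, 1.49 and 1.42.

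In the other direction, chr14:35623780-35624915 had folds of 6.78 and 8.06 in PS_Ia and 17.0 and 22.1 in FS_Ia, a difference of -1.55. On the same chromosome, chr14:80615437-80617013 had 7.40 and 9.13 in PS_Ia and 17.8 and 21.3 in FS_Ia, a difference of -1.40. The genotypes did not overlap in either region. The most negative difference, -1.63 (SE 0.43), was at chr13:74666006-74668408, where the PS_Ia replicates themselves were far apart, with folds of 5.55 and 23.1 against 21.7 and 45.8 in FS_Ia. On the linear fold scale the genotypes overlapped there. The other 3, chr9:64537776-64540439, chr1:184483809-184485147 and chr4:151864966-151866395, had differences of -1.42, -1.42 and -1.46.

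**Figure D2:**
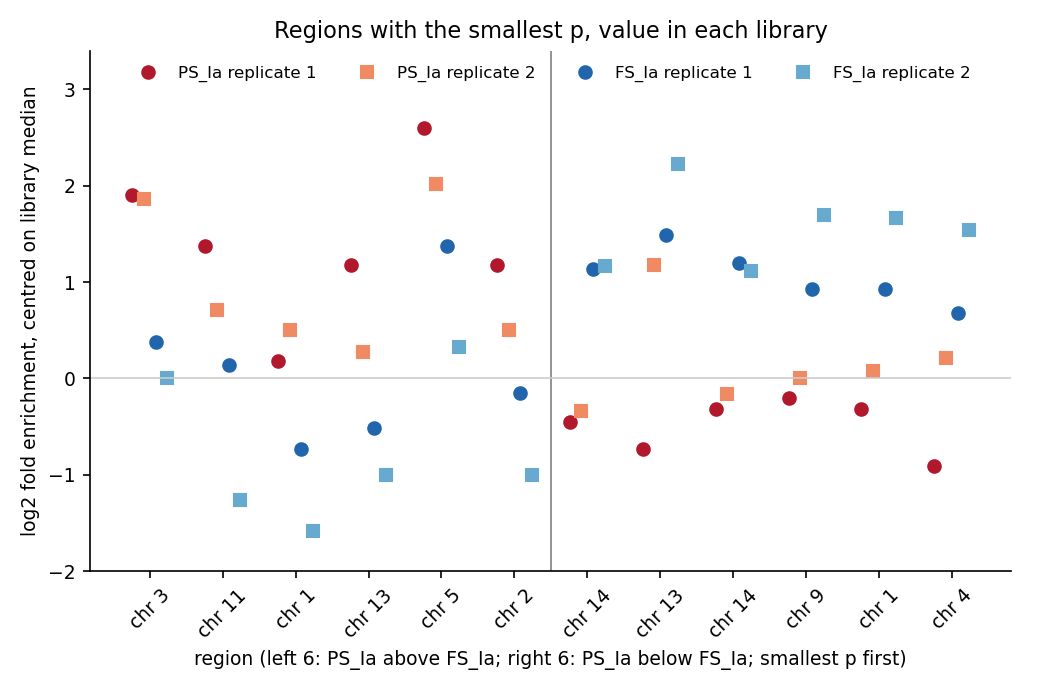
Centred log2 fold enrichment in each library (points) for the 12 regions with the smallest p, in order of p within each direction. In the left 6 both PS_Ia values lie above both FS_Ia values, and in the right 6 both lie below; the 2 replicates of a genotype are often far apart, as in the chromosome 13 region right of the dividing line.

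The same regions showed smaller differences in the Ca lines. In the fit of all 8 libraries, centred over the 6691 regions that all 8 lists held, the 6 regions with PS_Ia higher had PS_Ia minus FS_Ia of 1.1 to 1.7, and PS_Ca minus FS_Ca of -0.36 to 0.44. At chr3:95848440-95848947 the folds were 29.3 and 25.8 in PS_Ca and 17.9 and 34.7 in FS_Ca, which overlap. The 6 with PS_Ia lower had Ia differences of -1.59 to -1.35 and Ca differences of -0.41 to 1.12. These regions were chosen for their Ia difference, so a smaller one elsewhere is no result about them.

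Whether switch length went with strength unlike in Ia and Ca lines was tested in the 6691 regions of all 8 lists. By limma with Benjamini-Hochberg adjustment, 0 regions (0%) had a difference between the 2 contrasts (smallest adjusted p = 0.354), and 347 (5.19%) had an unadjusted p under 0.05. The interval of this difference reached a median of 1.025 to each side. The Ia differences had an SD of 0.44 over regions and the Ca differences 0.32. The 2 contrasts share no library, and across the 6691 regions Pearson's r between them was 0.03, with the same sign in 51.0% of regions. The smallest p belonged to chr17:13498742-13499349, with folds of 8.01 and 19.3 in PS_Ia, 16.2 and 41.7 in FS_Ia, 20.3 and 22.7 in PS_Ca, and 10.0 and 5.78 in FS_Ca. Its Ia difference was -1.17 and its Ca difference 1.56, which makes -2.73 between them (SE 0.59, 95% interval -3.93 to -1.53). Next came chr13:74666006-74668408, at -2.70 (SE 0.62), with folds of 22.6 and 27.1 in PS_Ca and 13.6 and 10.4 in FS_Ca. In both regions PS_Ca lay above FS_Ca, while PS_Ia averaged below FS_Ia. Without PS_Ia replicate 2 both passed, with limma adjusted p = 0.0151 at the chromosome 17 region and 0.00198 at the chromosome 13 region. The third was chr17:13743442-13746107, at -2.11 (SE 0.53), on the same chromosome as the first. In the other direction the leading regions were chr16:19145765-19148403, chr2:126991094-126993484 and chr16:91581634-91583224, at 1.88, 1.82 and 1.73. Chromosome 16 held 3.19% and 3.06% of the peaks of PS_Ca replicates 1 and 2, against 4.99% and 5.68% in FS_Ca. Its share was 5.14% and 5.75% in PS_Ia and 4.85% and 4.77% in FS_Ia. Both regions named on chromosome 16 were lower in PS_Ca, with Ca differences of -0.74 and -0.64. Whether they follow the lower share of that chromosome was not tested.

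In the full lists, most regions found once came from the longest list. Of the 55081 regions, 32904 (59.7%) had a peak in only 1 list, and 24177 of those came from PS_Ia replicate 2, the longest list. FS_Ia replicate 2 alone held 5618, PS_Ia replicate 1 alone 2722 and FS_Ia replicate 1 alone 387. Regions in both PS_Ia lists and neither FS_Ia list, called PS_Ia-only here, numbered 2683 (4.87%), and FS_Ia-only regions numbered 155 (0.281%). The regions in PS_Ia replicate 2 and FS_Ia replicate 2 but in neither replicate 1 were more numerous than either, at 4430. Of the regions found in both lists of a genotype, 60% of 15599 in PS_Ia and 86.9% of 10769 in FS_Ia were in all 4.

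With each list cut to its 13493 strongest peaks by −log10 q, the length of the shortest list, the imbalance nearly closed. The cut lists gave 21268 regions, of which 6787 were in all 4, 715 (3.36%) were PS_Ia-only and 645 (3.03%) FS_Ia-only. No test was made, since 2 libraries against 2 cannot reach the threshold by exact permutation. The cut did not make depth equal: the lowest summit kept was 8 and 11 fragments high in the PS_Ia lists, against 4 and 6 in the FS_Ia lists. Of the 715 PS_Ia-only regions, 319 had a peak in the full list of FS_Ia replicate 2, and 396 (55.4%) had none in either full FS_Ia list. Of the 645 FS_Ia-only regions, 557 had a peak in the full list of PS_Ia replicate 2, 189 had one in both full PS_Ia lists and 71 (11.0%) had none.

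Counts of this kind rest on both libraries of each genotype. Leaving out 1 library loosens the demand on its genotype, and the counts moved by over 1.5 times each time in the cut lists. There, PS_Ia-only and FS_Ia-only regions numbered 2605 and 1121 without PS_Ia replicate 1, and 3078 and 1776 without PS_Ia replicate 2. They numbered 1302 and 2038 without FS_Ia replicate 2. Without FS_Ia replicate 1, the shortest list, they numbered 2495 and 5026. There the cut was longer, at the 20089 peaks of PS_Ia replicate 1, so those counts mix a longer cut with a looser demand. In the cut lists the balance turned whenever FS_Ia was reduced to 1 list, where the demand on FS_Ia is looser. In the full lists the counts were 27568 and 249 without PS_Ia replicate 1, 6229 and 1372 without PS_Ia replicate 2, 3764 and 5790 without FS_Ia replicate 1, and 5163 and 571 without FS_Ia replicate 2.

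Regions present in 1 genotype were weaker and narrower than shared ones, in part by the way they were defined. A region in all 4 lists had to pass the cut in each, and its width joins the peaks of 4 lists in place of 2. PS_Ia-only regions of the cut lists had a median width of 1009 bp and FS_Ia-only regions 530 bp, against 1627 bp for the regions in all 4 cut lists. Within a library, the tallest peak had a median width of 653 and 845 bp in PS_Ia-only regions and 349 and 442 bp in FS_Ia-only regions. In the regions of all 4 cut lists it was 950 and 1487 bp in PS_Ia and 610 and 639 bp in FS_Ia, so PS_Ia peaks were wider there too. The median fold of the PS_Ia-only regions was 7.40 and 7.52 in PS_Ia replicates 1 and 2, and that of the FS_Ia-only regions 6.19 and 7.36 in FS_Ia replicates 1 and 2. The regions of all 4 cut lists had medians of 10.5 and 11.8 in PS_Ia and 9.28 and 11.4 in FS_Ia. Over 2000 bp in width were 34 of the PS_Ia-only and 0 of the FS_Ia-only regions. PS_Ia-only regions lay a median of 32.6 kb from the nearest region held by all 4 full lists, and FS_Ia-only regions 19 kb, against 1.98 kb for all regions of the cut lists. The order turned in the full lists, where PS_Ia-only regions lay a median of 32.4 kb away and FS_Ia-only regions 79.1 kb.

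The leading PS_Ia-only region by rank was chr1:24618401-24623056, with folds of 30.8 and 16.1 in PS_Ia and no peak in either full FS_Ia list. It was 4656 bp wide, against a median of 1009 bp for PS_Ia-only regions of the cut lists. No filter for artefact-prone regions was applied here, so whether this signal reflects Rad21 binding was not tested. The region was present in all 4 Ca lists, with folds of 18.1 and 9.45 in PS_Ca and 6.46 and 15.6 in FS_Ca. At chr11:9380790-9382479 the folds were 16 and 16.1 in PS_Ia, and FS_Ca held it in both lists at 7.89 and 8.09. The 6 that followed, on chromosomes 14, 16, 11, 6, 14 and 12, had folds of 8.59 to 17.9 in PS_Ia, and all 6 had a peak in both FS_Ca lists. All 8 leading PS_Ia-only regions had a peak in both lists of FS_Ca, the other genotype with full-length switch regions. Of all 715 PS_Ia-only regions, 60.1% had a peak in FS_Ca replicate 1 and 88.1% in FS_Ca replicate 2. These shares were 62.0% and 78.9% over all 21268 regions of the cut lists. The 8 were picked by rank, so their count does not stand for the class.

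Among the FS_Ia-only regions, chr4:142610765-142611895 led, with folds of 12.4 and 12.3 in FS_Ia, and the full list of PS_Ia replicate 2 held it at 5.37. PS_Ca replicate 1 held it at 6.77 and both FS_Ca lists at 7.89 and 9.82. At chr4:41643975-41645194 the folds were 9.28 and 24.5 in FS_Ia, with no peak in either full PS_Ia list, and again PS_Ca replicate 1 and both FS_Ca lists held it. At chr7:50750474-50751156 the folds were 10.8 and 13.1 in FS_Ia and 3.59 and 7.51 in FS_Ca, with no peak in either PS_Ca list, while the full list of PS_Ia replicate 2 held it at 6.44. That was the only one of the 8 leading FS_Ia-only regions with a peak in both FS_Ca lists and neither PS_Ca list. Of the 8, 7 had a peak in at least 1 full PS_Ia list, and of the 8 leading PS_Ia-only regions 2 had one in a full FS_Ia list.

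Regions that followed switch length in the Ca lines as well were few in number, at shares near or above those of all regions. Of the 715 PS_Ia-only regions of the cut lists, 659 (92.2%) had a peak in at least 1 full FS_Ca list, against 83.5% of all 21268 regions, and 5 (0.699%) were in both PS_Ca lists and neither FS_Ca list, against 0.583% of all. Of the 645 FS_Ia-only regions, 546 (84.7%) had a peak in at least 1 PS_Ca list, close to the 82.8% of all regions, and 21 (3.26%) were in both FS_Ca lists and neither PS_Ca list, against 1.18% of all. In the full lists, 25 of 2683 PS_Ia-only regions (0.932%) and 6 of 155 FS_Ia-only regions (3.87%) had the matching pattern in the Ca lines, against 0.338% and 0.719% of all regions. PS_Ca replicate 2 was the shortest Ca list, with 10361 peaks, and limits both counts.

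**Figure D3:**
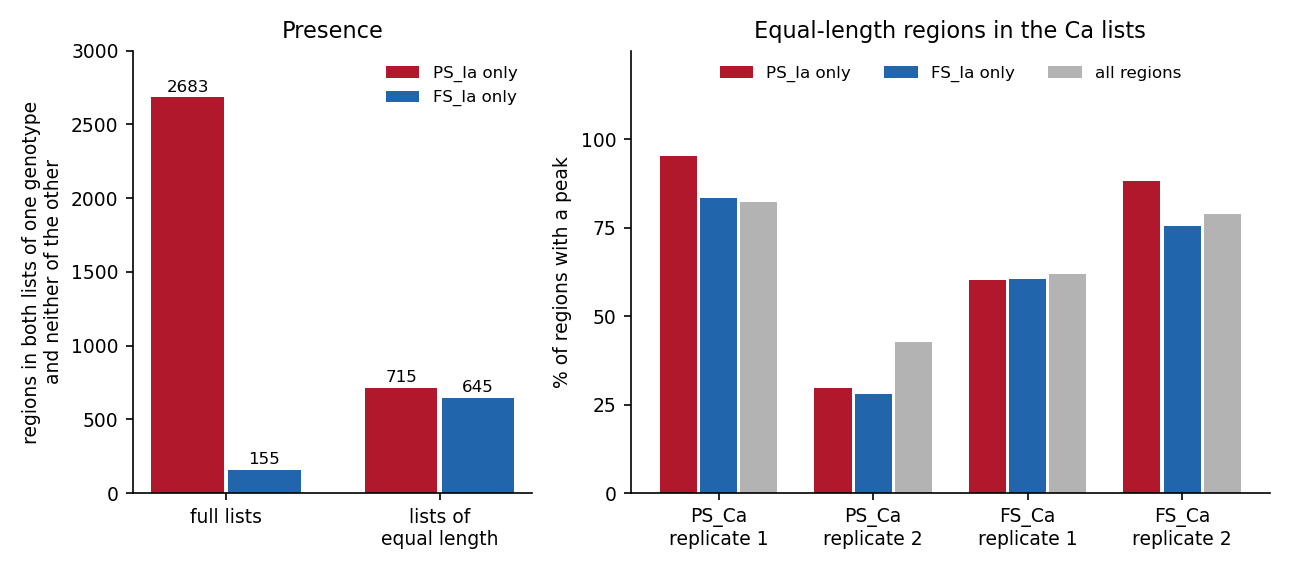
Left, regions in both lists of 1 genotype and neither of the other, in full lists and in lists cut to 13493 peaks. Right, percent of the PS_Ia-only, FS_Ia-only and all regions of the cut lists with a peak in each full Ca list; 95.2% of the PS_Ia-only regions had a peak in PS_Ca replicate 1 and 88.1% in FS_Ca replicate 2.

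By chromosome, no difference passed. By limma with Benjamini-Hochberg adjustment over the 19 numbered chromosomes, 0 (0%) differed in median centred strength (smallest adjusted p = 0.339, for chromosome 5, the only one with an unadjusted p under 0.05). Likewise 0 (0%) differed in their share of a library's peaks (smallest adjusted p = 0.885, and 0 at an unadjusted p under 0.05). Single libraries stood apart on chromosomes 12 and 15. Chromosome 12 held 3.73% and 5.64% of the peaks of PS_Ia replicates 1 and 2, against 3.86% and 3.69% in FS_Ia replicates 1 and 2, so that PS_Ia replicate 2 was high and its own replicate was not. Its mean centred strength on that chromosome was 0.32, against 0.03 in PS_Ia replicate 1 and 0.12 and 0.05 in the FS_Ia replicates. Chromosome 15 held 3.87% and 5.36% of the peaks of PS_Ia replicates 1 and 2, against 5% and 5.35% in the FS_Ia replicates, with PS_Ia replicate 1 low.

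These libraries decided the calls that leaving 1 out could make. Without PS_Ia replicate 1, the chromosome 12 share was higher in PS_Ia by 0.58 on the log2 scale (SE 0.09, limma adjusted p = 3.84e-05). Without PS_Ia replicate 2, the chromosome 15 share was lower, at -0.42 (SE 0.09, limma adjusted p = 0.00225). Without PS_Ia replicate 1, median strength was also called higher on chromosomes 4 and 9, by 0.08 each (limma adjusted p = 0.0328). In the regions merged anew from those 3 lists, both FS_Ia medians were 0 on both chromosomes.

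**Figure D4:**
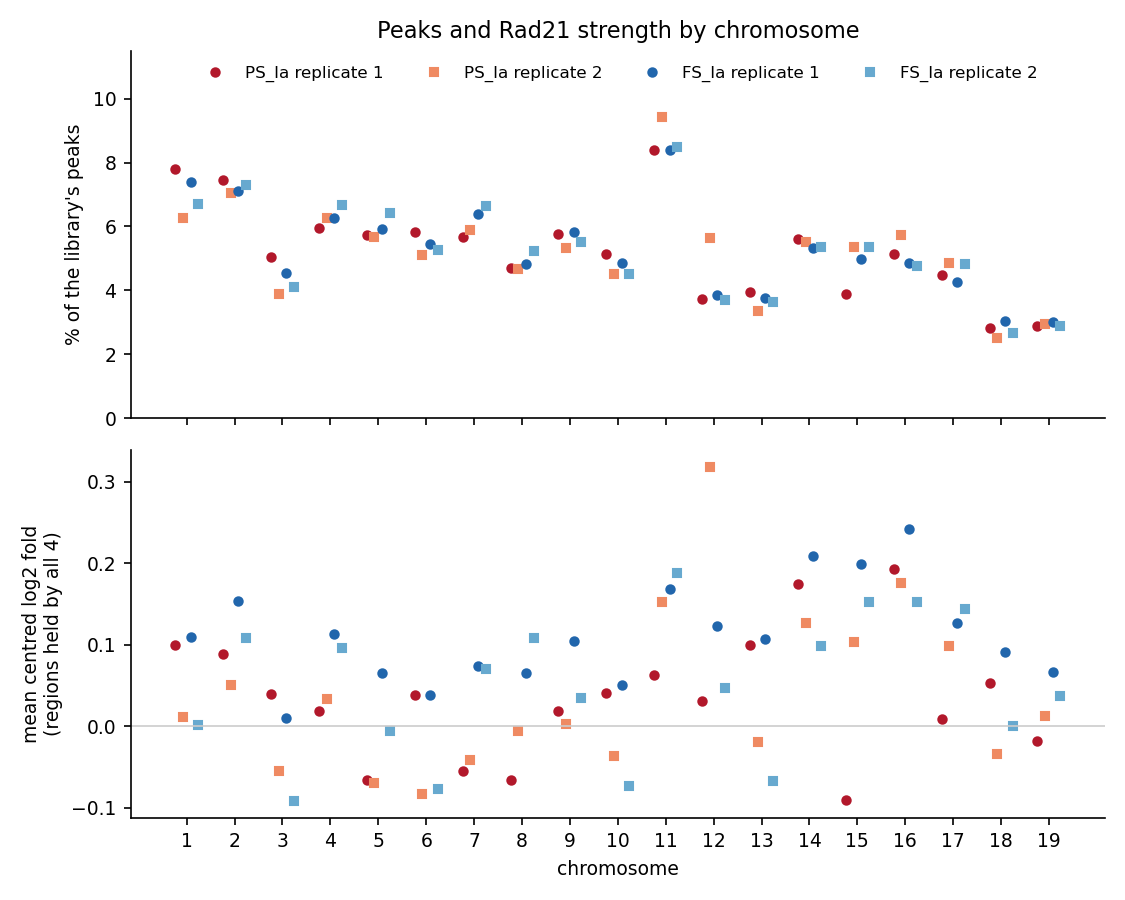
Share of each library's peaks (top, percent) and mean centred log2 fold enrichment of the regions held by all 4 lists (bottom) on each numbered chromosome, 1 point per library. PS_Ia replicate 2 stands above the others on chromosome 12, at 5.64% of its peaks, and PS_Ia replicate 1 below them on chromosome 15, at 3.87%.

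Presence in the cut lists was uneven between chromosomes. Chromosome 1 held 12.6% of the PS_Ia-only regions and 5.89% of the FS_Ia-only regions, against 7.81% of all regions. Chromosome 12 held 9.23% of the PS_Ia-only and 2.02% of the FS_Ia-only regions, against 4.57% of all. In the full lists chromosome 1 held 9.13% and 6.45%, against 6.33% of all. Chromosome 12 held 4.92% and 3.87% there, against 5.15%. Peaks tied at the cut were kept in text order of chromosome name, which puts chromosomes 1 and 12 ahead of chromosome 2. The part of this order in the unevenness was not tested. A single library led in cut-list peaks on chromosome 1 and on chromosome 12. Chromosome 1 held 9.10% and 7.52% of the cut-list peaks of PS_Ia replicates 1 and 2, against 7.38% and 7.35% in FS_Ia replicates 1 and 2. For chromosome 12 these shares were 4.26% and 5.74% in PS_Ia, against 3.86% and 4.15% in FS_Ia. The 1 Mb windows with most PS_Ia-only regions were singled out after the values were seen. They were chr1:85000001-86000000 with 17 of 77 regions and chr1:87000001-88000000 with 15 of 81, whereas the next window, and any window for FS_Ia-only regions, held at most 5. Both windows were dense in every list: in the first, the full lists held 109 and 119 peaks in PS_Ia and 76 and 101 in FS_Ia, against medians of 5 to 12 peaks per 1 Mb window of chromosome 1. The first window's peaks covered 138 and 179 kb in PS_Ia, against 49.2 and 55.1 kb in FS_Ia. The whole filtered lists covered 14.5 and 33.2 Mb in PS_Ia, against 7.37 and 12.3 Mb in FS_Ia. Coverage was thus larger in PS_Ia over all chromosomes as well, and a window's kb is not set against that here. Its 22 regions held by all 4 lists had mean centred strengths of 0.84 and 0.90 in PS_Ia and 0.55 and 0.31 in FS_Ia. In the second window the 16 such regions had 0.86 and 0.81 in PS_Ia and 0.32 and 0.18 in FS_Ia, and the window holds chr1:87522761-87524500, named above. In both windows the PS_Ia libraries lay above both FS_Ia libraries, and no test was made of windows picked in this way. In the Ca lines the first window's peaks covered 149 and 78.2 kb in PS_Ca and 74.8 and 161 kb in FS_Ca, which overlap.

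The 3' flank of Igh, the part of the edited locus that could be compared, carried Rad21 in 13 regions, of which 3 held a peak in all 4 lists. The flank held 6 and 13 peaks in PS_Ia replicates 1 and 2, against 4 and 8 in FS_Ia replicates 1 and 2, and per 10000 kept peaks it held 2.99 and 2.77, against 2.96 and 3.12. The strongest region, chr12:114457842-114461800, had folds of 11.7 and 18.8 in PS_Ia and 9.28 and 14.7 in FS_Ia. The difference of centred values was 0.19 (SE 0.39, 95% interval -0.60 to 0.97). At chr12:114455312-114456625 the folds were 9.25 and 10.2 in PS_Ia and 5.42 and 12.3 in FS_Ia, a difference of 0.10 (SE 0.40, 95% interval -0.70 to 0.89). At chr12:114454012-114455014 they were 11.1 and 5.91 in PS_Ia and 6.19 and 13.1 in FS_Ia, a difference of -0.31 (SE 0.41, 95% interval -1.12 to 0.51). In all 3 the genotypes overlapped, and limma with Benjamini-Hochberg adjustment gave adjusted p between 0.921 and 0.981. The direction turned in each when 1 library was left out. The first region's difference became -0.083 without PS_Ia replicate 2, and the second's -0.32 without FS_Ia replicate 1. The third's became 0.22 without PS_Ia replicate 2 and 0.06 without FS_Ia replicate 2.

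Away from these, chr12:114443687-114444229 lay about 10 kb further from Cα and was found in 3 lists, with folds of 6.78 and 6.44 in PS_Ia and 4.09 in FS_Ia replicate 2. FS_Ia replicate 1, the shortest list, had no peak there. The other 9 regions of the flank were each found in 1 list, 8 in PS_Ia replicate 2 and 1 in FS_Ia replicate 2, with folds of 3.76 to 6.98. The 3 nearest to Cα, from chr12:114495265-114496327 to chr12:114498490-114499129, were found in PS_Ia replicate 2 alone, close to where the lists stop sharing 1 set of positions, so their place in Igh is not settled.

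**Figure D5:**
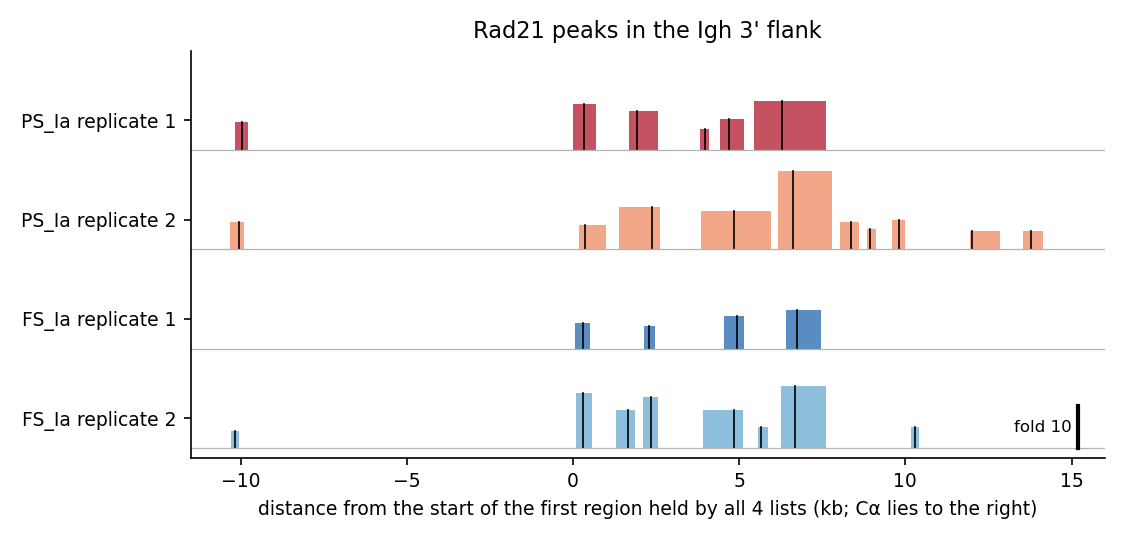
Rad21 peaks of the 4 lists in the 3' flank of Igh, by distance in kb from the start of the first region held by all 4 (chr12:114454012). Box width is the peak's extent, box height its fold enrichment (scale bar, 10) and the black line its summit; the 3 regions between 0 and 8 kb appear in every list, and 3 further regions of PS_Ia replicate 2 lie to the right of the range shown.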

How the data were processed

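The authors deposited 1 peak list of 10 columns per Rad21 ChIP-seq library. Per the labels' protocols, cells were fixed with 1% formaldehyde after 72 h of stimulation, and immunoprecipitated chromatin was tagmented with Tn5. Per the submitters' processing notes the tools were MACS2 2.2.7.1, Bowtie2 2.4.4, deepTools 3.5.1 and SAMtools 1.15.1, and the build was mm9. No source used here gives settings, controls or read numbers. Each deposited list gives a score, the fold enrichment at the summit (a ratio over the expected background), −log10 p and −log10 q per peak, and the summit's offset. These are the authors' values, made per library and not on pooled samples. Fold gives back whole fragments, as (height + 1) over (background + 1), and heights and background were recovered from the spacing of the fold values. Read depth itself is unknown, so counting error at summits of 3 to 5 fragments limits the precision.

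Chromosomes X, Y and M and chromosome 12 from just past the Igh 3' flank were left out, the last because earlier results of these data found the lists' positions displaced there. Overlapping peaks (1 bp or more) were merged. Strength was log2 of a region's highest fold, with no pseudocount, centred on the library median. Differences, PS_Ia minus FS_Ia, were tested with limma 3.58.1 (R 4.3.3) without a replicate block, Benjamini-Hochberg adjustment and a threshold of 0.05; presence was counted. Equal-length lists were ranked by −log10 q, with ties settled by fold, then by chromosome name and start. Other steps used Python 3.11.15 with scipy 1.17.1, pandas 2.3.3, matplotlib 3.10.9 and numpy 2.4.6, and were tested on simulated data.

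Regions named were the Igh flank, 6 per direction by smallest p in strength (none passed), the leading of 8 per direction in presence by mean rank, and 3 per direction in the difference from the Ca contrast; the 1 Mb windows were picked after their values were seen. The libraries, regions and tests were chosen with earlier results of these data known. Alternatives were other scalings, a −log10 q of at least 5, summits ± 100 bp, presence in the strongest peaks, a replicate block, a variance trend and each library left out. No gene was assigned and no sequence printed, since no mm9 genome was used here.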

Additional observations from a re-analysis of the deposited data

How the results depend on the processing

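The absence of calls in strength (0 in each direction) held under 13 of 14 alternatives, with smallest adjusted p between 0.096 and 1 by limma. The exception was the replicate block. Libraries share only a number (the replicate 1 minus 2 differences of PS_Ia and FS_Ia had r = 0.361 over 9360 regions, with 2 pairs), so the block is not part of the design. With the replicate block, limma called 33 regions higher and 43 lower in PS_Ia, 32 wider and 28 narrower, and 2 with a difference from the Ca contrast, chr17:13498742-13499349 and chr13:74666006-74668408. The 12 regions named for strength then passed (limma adjusted p 0.00186 to 0.00947), as did 3 of them without FS_Ia replicate 1 in regions as first merged, while all 12 kept their direction in the 9 alternatives computed for them. Block values change no presence count.

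PS_Ia-only regions numbered 1330 at −log10 q of at least 5 and 393 when presence was read from the 13493 strongest peaks of a list and absence from full lists, in place of 2683. FS_Ia-only regions numbered 71 in that second setting and 523 with summits ± 100 bp, in place of 155. With the strongest 5000 peaks per list, chosen after seeing the data, the equal-length counts were 339 and 328 in place of 715 and 645.

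Leaving out each library gave 3764 to 27568 PS_Ia-only and 249 to 5790 FS_Ia-only regions in full lists, and 1302 to 3078 and 1121 to 5026 in lists of equal length. It gave 0 to 2 calls for chromosome strength, 0 to 1 for chromosome share, 0 to 2 for the difference from the Ca contrast, and 0 for strength and width. Where a genotype was left with 1 library, it was assumed to vary like the other. In the Igh flank, leaving out each library gave differences of -0.84 to 0.22 at chr12:114454012-114455014 (also 0.06), -0.32 to 0.51 at chr12:114455312-114456625, and -0.083 to 0.46 at chr12:114457842-114461800. The causes were not tested. In the other 76 alternatives for counts, values stayed within 1.5 times. Many of these set 0 calls against 0, and some, such as the replicate block for presence, could not differ. Their number is therefore no measure of stability.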
